A study of Drosophila melanogaster with 31 samples.

Results

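The genes dec, Mur2B, CG15570 and Femcoat are transcribed in the ovary of Drosophila melanogaster and are grouped here as eggshell genes of the late follicle cells other than the chorion and vitelline membrane protein genes. They are 4 of the 16884 genes and transposons listed in 21 RNA tables. The members were found by matching RefSeq transcripts to gene symbols, and the estimated counts of their 11 transcripts were summed per gene and expressed as cpm, the share of a library's estimated counts times 1000000. They were chosen by their measured cpm in these same 7 groups, chiefly their high levels in mod07570/L8 ovaries, so their levels and fold changes in every comparison are a description and carry no test.

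RNA was measured in 7 groups of 3 libraries. Ovaries came from mod07570/L8, modL8/+ and mod07570/+ flies. Heads came from mod07570/L8 and mod07570/+ flies, and from flies with and without ectopic eye outgrowths (EEO). Modulo (mod) is a nucleolin-like protein that binds RNA and DNA. mod07570 is a hypomorphic allele made by a P-element insertion, and modL8 is an amorphic allele that is a subterminal deletion of chromosome arm 3R, so a modL8 chromosome may lack more than mod. Every ovary group carries at least 1 mutant copy of mod. The labels give the heads with and without EEO the genotype mod07570/L8, whereas the study describes flies born to mod07570/L8 mothers crossed with KrIf-1 males. Whole ovaries and whole heads were used, and no age is stated in the sources used here.

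The Drosophila eggshell is secreted by the follicle cells, a somatic epithelium that surrounds the developing egg. These cells first lay down the vitelline membrane and later the layers of the chorion, switching on waves of genes for structural and cross-linking proteins as the egg chamber matures. dec (defective chorion) encodes, by alternative splicing, several proteins that are needed to organise the eggshell. Femcoat is a female-specific eggshell protein made in the follicle cells, and Mur2B is a mucin-related protein. CG15570 has no functional name in the annotation. The tables hold whole ovaries and no stages, so the label late follicle cell eggshell gene was not tested here. For CG15570 and Mur2B no eggshell role or timing is given above, so for them it is a name of the group alone. Mur2B was also found in heads, as given further on.

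The libraries held 12820086 to 22695680 estimated counts. mod, the targeted gene, was at 10.3 to 12.3 cpm in mod07570/L8 ovaries, 449 to 462 cpm in modL8/+ ovaries and 324 to 342 cpm in mod07570/+ ovaries, and at 18.2 to 20.0 cpm in mod07570/L8 heads against 58.7 to 122 cpm in mod07570/+ heads. It was at 37.1 to 52.8 cpm in heads with EEO and 37.1 to 49.8 cpm in heads without EEO, above every head library of mod07570/L8 and under every one of mod07570/+. Heads with and without EEO also differ from the other heads in sex-linked markers, as given further on. The value of 122 cpm was in replicate 2 of the mod07570/+ heads, which held germline RNA. The genotype of heads with and without EEO was therefore not read from mod. All 5 germline markers found in the tables were detected in each ovary library, with a summed level of 2655 to 2711 cpm in mod07570/L8, 2798 to 2806 cpm in modL8/+ and 2708 to 2740 cpm in mod07570/+. Most of this sum was osk, and the markers did not move as one: in mod07570/L8 against mod07570/+ ovaries bam fell to 63.9 to 69.4 cpm, against 131 to 137 cpm, and vas rose to 204 to 214 cpm, against 136 to 149 cpm (log2 fold changes -0.93 and 0.64, edgeR adjusted p = 2.58e-17 and 9.21e-16). The 4 photoreceptor markers summed to at most 0.34 cpm in any ovary library. The spread between replicates, as edgeR's common biological coefficient of variation, was 0.024 to 0.026 in the 3 ovary fits and 0.191 to 0.2 in the 2 head fits. The chi-square per degree of freedom between replicates, which rises with differences beyond counting error, was 1.951 to 2.785 in ovaries. In heads it was 5.688 to 175. The p-values of the ovary comparisons are set against this narrow spread and measure no wider variation between flies.

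All 4 genes were highest in mod07570/L8 ovaries, intermediate in modL8/+ ovaries and lowest in mod07570/+ ovaries. Their summed level averaged 4768 ± 30.8 cpm in mod07570/L8 (SD, n = 3), 1284 ± 26.1 cpm in modL8/+ and 658 ± 16.1 cpm in mod07570/+. This sum made up 0.477% of the counts of a mod07570/L8 library, 0.128% of a modL8/+ library and 0.0658% of a mod07570/+ library. Whole ovaries were sampled, so more cells of a type and more RNA per cell cannot be told apart.

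dec was the most abundant member. It was at 3281, 3290 and 3269 cpm in mod07570/L8 ovaries, 866, 904 and 898 cpm in modL8/+ ovaries and 482, 462 and 454 cpm in mod07570/+ ovaries. The 3 genotypes did not overlap, and the lowest mod07570/L8 library was 6.78 times the highest mod07570/+ library. The mean of mod07570/L8 was 7.04 times that of mod07570/+ and 3.69 times that of modL8/+, and the mean of modL8/+ was 1.91 times that of mod07570/+. By cpm, dec ranked 12th of 11904 features detected in mod07570/L8 ovaries, 161st of 11373 in modL8/+ ovaries and 368th of 11369 in mod07570/+ ovaries.

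CG15570 followed dec closely. Its level was 814, 816 and 812 cpm in mod07570/L8 ovaries, 227, 229 and 232 cpm in modL8/+ ovaries and 118, 120.3 and 120.4 cpm in mod07570/+ ovaries. The libraries of a genotype lay within a few cpm of each other, with a coefficient of variation of 0.23% in mod07570/L8, 1.16% in modL8/+ and 0.93% in mod07570/+, and the genotypes did not overlap. Counting error alone is larger than this at the 1538 to 14979 counts of these libraries. The SD of 3 libraries therefore understates the spread of CG15570. The mean of mod07570/L8 was 6.80 times that of mod07570/+ and 3.55 times that of modL8/+, and modL8/+ was 1.91 times mod07570/+.

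Mur2B, the mucin-related member, was at 568, 560 and 545 cpm in mod07570/L8 ovaries, 135, 138 and 147 cpm in modL8/+ ovaries and 65.1, 61.3 and 58.9 cpm in mod07570/+ ovaries. Again the 3 genotypes stood apart. The mean of mod07570/L8 was 9.03 times that of mod07570/+ and 3.99 times that of modL8/+, and modL8/+ was 2.27 times mod07570/+.

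Femcoat had the fewest counts and the largest ratios of the 4 genes. It was at 123, 119 and 107 cpm in mod07570/L8 ovaries, 25.8, 25.1 and 25.5 cpm in modL8/+ ovaries and 10.4, 9.20 and 12.0 cpm in mod07570/+ ovaries. Its spread in mod07570/+ was the widest of the members, with a coefficient of variation of 13.2% over libraries of 135 to 198 counts, yet the genotypes did not overlap. The mean of mod07570/L8 was 11.1 times that of mod07570/+ and 4.59 times that of modL8/+, and modL8/+ was 2.42 times mod07570/+.

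**Figure D1:**
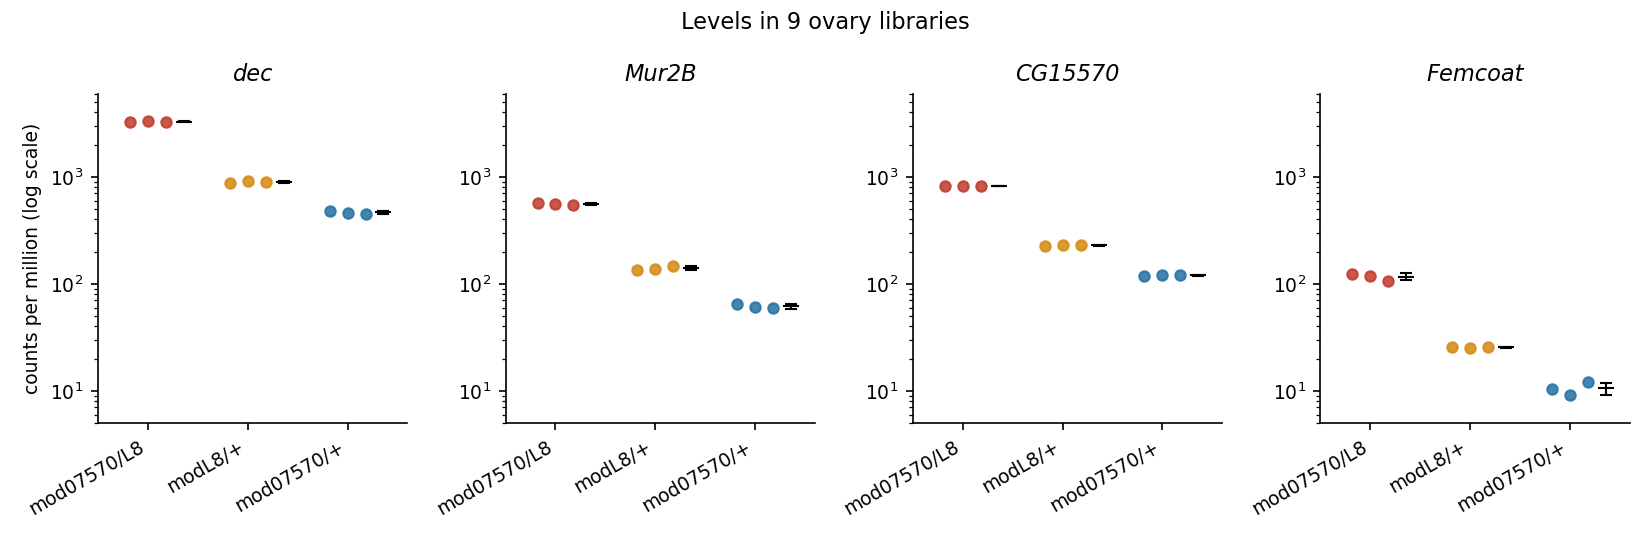
Levels of the 4 genes in each of the 9 ovary libraries, in cpm on a log axis, with 1 panel per gene and 1 column per genotype. Points are libraries, and the dash beside them is the mean with its SD (n = 3). In every panel the mod07570/L8 points lie above the modL8/+ points, which lie above the mod07570/+ points.

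Counts favour long transcripts, so levels of different genes were compared by the deposited FPKM, which are per kilobase. In mod07570/L8 ovaries the order was dec (700 ± 6.1 FPKM, SD, n = 3), CG15570 (216 ± 2.0), Femcoat (183 ± 9.1) and Mur2B (87.1 ± 1.2). The order was the same in modL8/+ ovaries, with 194 ± 0.57, 61.4 ± 0.69, 40.7 ± 1.7 and 21.9 ± 0.99 FPKM, and in mod07570/+ ovaries, with 102 ± 2.2, 32.3 ± 0.016, 17.1 ± 2.1 and 9.57 ± 0.39 FPKM. Neighbours in this order differed by more than their spread in each genotype. Femcoat, which is the lowest member in cpm, stands above Mur2B per kilobase. Its transcript has 833 bases, and those of Mur2B have 5100 to 6772 bases.

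The make-up of the sum shifted only a little between genotypes. dec held 68.8% ± 0.26 (SD, n = 3) of the counts of the 4 genes in mod07570/L8, 69.3% ± 0.43 in modL8/+ and 70.8% ± 0.49 in mod07570/+ ovaries. CG15570 held 17.1% ± 0.081 in mod07570/L8, 17.9% ± 0.21 in modL8/+ and 18.2% ± 0.61 in mod07570/+. The shares of Mur2B and Femcoat ran the other way. Mur2B held 11.7% ± 0.18 in mod07570/L8, 10.9% ± 0.33 in modL8/+ and 9.38% ± 0.25 in mod07570/+, and Femcoat 2.44% ± 0.16, 1.98% ± 0.064 and 1.60% ± 0.23 in the same 3 genotypes.

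edgeR's quasi-likelihood fit over all features, which scales libraries by TMM (trimmed mean of M values) before comparing them, gave slightly larger folds than the ratios of cpm. For mod07570/L8 over mod07570/+ ovaries, the log2 fold change was 2.91 (standard error 0.024) for dec, 2.86 (0.026) for CG15570, 3.27 (0.032) for Mur2B and 3.56 (0.070) for Femcoat. Among the 8295 features fitted, 125 had a larger log2 fold change than dec, 135 than CG15570, 73 than Mur2B and 47 than Femcoat. For modL8/+ over mod07570/+ ovaries, the log2 fold change was 0.96 (0.027) for dec, 0.96 (0.031) for CG15570, 1.21 (0.044) for Mur2B and 1.29 (0.094) for Femcoat. For mod07570/L8 over modL8/+ ovaries it was 1.95 (0.022) for dec, 1.90 (0.024) for CG15570, 2.06 (0.030) for Mur2B and 2.27 (0.054) for Femcoat. The comparisons share libraries in pairs, so they are not independent of each other.

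At an adjusted p under 0.05, all 4 members were called higher in each of the 3 ovary comparisons, where the share of all features called higher was 38.5% in mod07570/L8 over mod07570/+, 21.7% in modL8/+ over mod07570/+ and 36.4% in mod07570/L8 over modL8/+. The 4 members also had all 3 libraries of the first genotype above all 3 of the second in each comparison, as had 32.2%, 22.0% and 30.7% of all features in the same order. These contrasts chose the members, so nothing is read from the counts. Over all features the median log2 fold change was 0.00 in each of the 3 fits, and the median over the 4 members was 3.09, 1.08 and 2.01. With unique counts in place of estimated counts, fewer features were called in either direction in mod07570/L8 against mod07570/+ (4048 in place of 6434), in modL8/+ against mod07570/+ (1396 in place of 3404) and in mod07570/L8 against modL8/+ (3549 in place of 5953).

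Marker levels of several lists also differed between the ovary genotypes, not all in the order of the members. The 5 follicle cell markers (tj, Fas3, slbo, mirr and peb), none at 0 in any ovary library, summed to 269 to 280.3 cpm in mod07570/L8, 125 to 136 cpm in modL8/+ and 109 to 110.3 cpm in mod07570/+ ovaries. All 5 were called higher in mod07570/L8 than in either heterozygote, by 0.76 (peb) to 1.75 (tj) on the log2 scale over mod07570/+, leaving slbo aside. slbo (2.00) was at 0.725 to 1.77 cpm in mod07570/+ and 3.49 to 4.59 cpm in mod07570/L8 ovaries. Against mod07570/+ it passed the filter of 1 cpm in 3 libraries through mod07570/L8, so its call there is not read as a result. In modL8/+ against mod07570/+ ovaries only tj (0.47, edgeR adjusted p = 2.19e-07) and Fas3 (0.28, 0.00164) of the 5 were called higher, and peb was at 30.0 to 34.1 cpm against 32.0 to 35.1 cpm (-0.07, 0.413). The 6 muscle markers, also none at 0, summed to 243 to 252 cpm, 85.7 to 91.9 cpm and 119 to 119.5 cpm in the same 3 genotypes, so that they were highest in mod07570/L8 but lowest in modL8/+. The 3 yolk protein genes summed to 6829 to 6984 cpm in mod07570/L8, 4201 to 4256 cpm in modL8/+ and 2337 to 2391 cpm in mod07570/+. Of the 4 fat body markers only apolpp, a lipid carrier protein gene, was above 1.12 cpm in any ovary library, at 32.7 to 35.9 cpm, 18.6 to 23.6 cpm and 10.2 to 13.7 cpm in these genotypes. Lsp2, a larval serum protein, was at 0.851 to 1.12 cpm, 0.363 to 0.884 cpm and 0.548 to 0.847 cpm, Obp99b at no more than 0.170 cpm, and Fbp1 at 0 in all 9 libraries, so the list did not move with the members beyond apolpp. The part of muscle, apolpp and yolk gene levels in the members' differences was not tested.

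Each member was therefore also set against the follicle cell markers of its own library, a measure added after the data were seen. The summed marker level of mod07570/L8 was 2.50 times that of mod07570/+ and 2.11 times that of modL8/+, and modL8/+ was 1.19 times mod07570/+. Per unit of this sum, dec was at 12.0 ± 0.28 in mod07570/L8 (SD, n = 3), 6.83 ± 0.36 in modL8/+ and 4.24 ± 0.11 in mod07570/+ ovaries. Against mod07570/+, mod07570/L8 was then 2.82-fold higher for dec, 2.72-fold for CG15570, 3.61-fold for Mur2B and 4.43-fold for Femcoat. Against modL8/+, mod07570/L8 was 1.75-fold higher for dec, 1.69-fold for CG15570, 1.89-fold for Mur2B and 2.18-fold for Femcoat. The ratio of modL8/+ to mod07570/+ was 1.61 for dec, 1.61 for CG15570, 1.91 for Mur2B and 2.04 for Femcoat. The differences were smaller than in cpm, kept their order and did not overlap between genotypes for any member. The marker sum of a library is mostly tj, Fas3 and peb, and its rise in modL8/+ over mod07570/+ rests on tj and Fas3. The marker list covers follicle cells of all stages, and a different mix of stages cannot be told apart from a different level within late follicle cells.

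**Figure D2:**
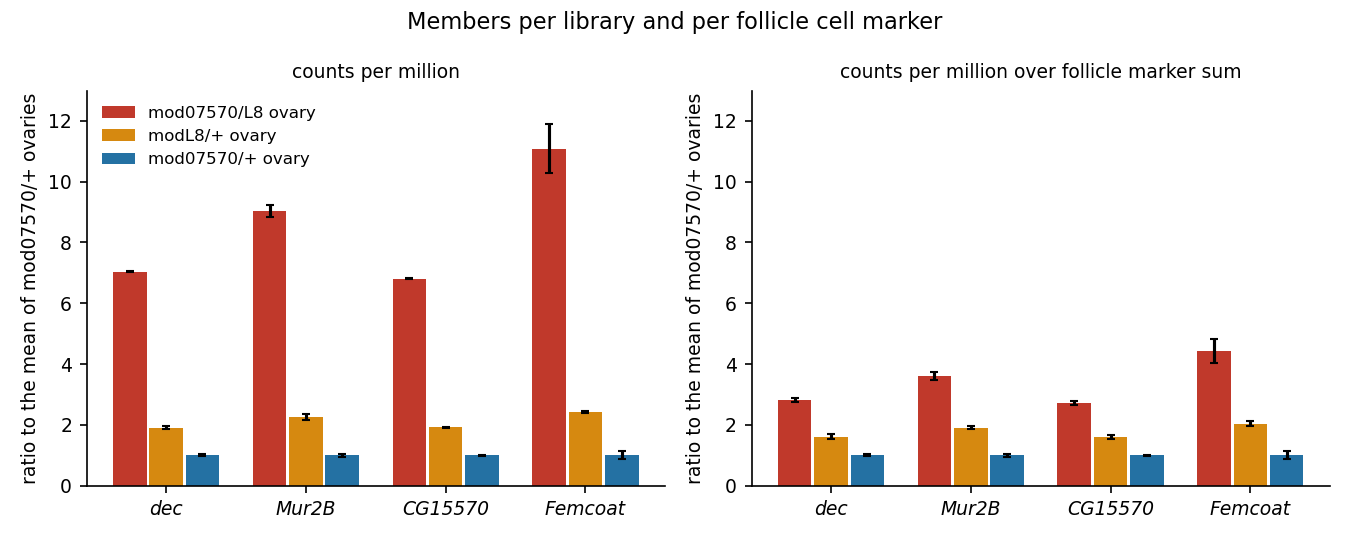
Mean of each ovary genotype divided by the mean of mod07570/+ ovaries, for cpm (left) and for cpm over the summed follicle cell markers of the same library (right). Error bars are the SD over 3 libraries divided by the same mean. For Femcoat in mod07570/L8 the bar stands at 11.1 on the left and at 4.43 on the right, and all bars keep their order.

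The other genes of the eggshell pathway were taken from 5 lists, which hold 41 genes, all of them tested in ovaries with edgeR's quasi-likelihood test and Benjamini-Hochberg adjustment over all features. The lists were drawn up with earlier results of these data known. In mod07570/L8 against mod07570/+ ovaries, 37 of the 41 genes were called higher and 2 lower, with a median log2 fold change of 2.00, where 38.5% of all features were called higher and 39.1% lower. With total-count scaling 35 were called higher and 3 lower, the calls of Pxt and Oamb being lost and EcR being called lower. In modL8/+ against mod07570/+ ovaries, 32 rose and 3 fell, with a median of 0.58 (21.7% and 20.5% of all features). With unique counts, 21 rose in that comparison, where fewer features were called over all, as given above. The share of all features called higher with unique counts was not computed, so the 21 are not read against the 21.7%. In mod07570/L8 against modL8/+ ovaries, 35 rose and 3 fell, with a median of 1.32 (36.4% and 36.3%).

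In mod07570/L8 against mod07570/+ ovaries all 4 late chorion genes, which encode structural proteins of the outer eggshell, rose, with log2 fold changes of 3.10 (Cp15), 3.61 (Cp16), 3.54 (Cp18) and 3.42 (Cp19) and a largest adjusted p of 4.86e-33. All 5 early chorion genes rose, by 2.62 (Cp36), 2.56 (Cp38), 2.94 (Cp7Fa), 2.23 (Cp7Fb) and 2.61 (Cp7Fc) on the log2 scale, with a largest adjusted p of 1.38e-28. All 7 vitelline membrane genes rose as well, by 2.58 (Vm26Aa), 2.25 (Vm26Ab), 2.00 (Vm26Ac), 2.74 (Vm32E), 2.82 (Vm34Ca), 2.78 (Vml) and 2.61 (psd), with a largest adjusted p of 5.98e-14. The fitted folds of the members, 7.24 to 11.8, thus stood beside 8.57 to 12.2 for late chorion, 4.68 to 7.69 for early chorion and 4.01 to 7.05 for vitelline membrane genes. Differences between these lists were not tested.

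Between the heterozygotes the members stood elsewhere among the lists. The fitted folds of modL8/+ over mod07570/+ ovaries were 1.94 to 2.45 for the members, 2.59 to 3.65 for late chorion, 1.83 to 2.33 for early chorion and 1.78 to 2.45 for vitelline membrane genes, and every gene of these 3 lists was called higher. In mod07570/L8 over modL8/+ ovaries the fitted folds were 3.73 to 4.82 for the members, 2.35 to 4.47 for late chorion, 2.55 to 3.33 for early chorion and 1.64 to 3.35 for vitelline membrane genes, again all called higher.

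The list of cross-linking and assembly genes was more mixed. All 9 genes were called higher in mod07570/L8 than in mod07570/+ ovaries under TMM scaling, with a largest adjusted p of 0.0413 for Pxt, whose direction turned with the scaling. The log2 fold changes were 3.06 for Fcp3C, 2.65 for yellow-g, 2.57 for yellow-g2, 2.40 for ndl (nudel, an eggshell protease), 1.77 for Cad99C, 1.52 for fs(1)M3, 1.16 for clos (closca), 1.11 for fs(1)N and 0.05 for Pxt, a peroxidase. Fcp3C lay within the range of the members, yellow-g and yellow-g2 just under it, and Pxt near the median of all features. Pxt was at 1328 to 1333 cpm in mod07570/L8 against 1333 to 1396 cpm in mod07570/+ ovaries. Scaling by total counts moved the median of all features by 0.09 on the log2 scale and gave -0.04 for Pxt (edgeR adjusted p = 0.0648), so no change of Pxt is read from these data.

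Of 16 regulators and spatial markers of the follicle cells, 12 were called higher and 2 lower in mod07570/L8 against mod07570/+ ovaries, with a median log2 fold change of 1.09. With total-count scaling Oamb, an octopamine receptor, was no longer called, and EcR, the ecdysone receptor, was called lower (log2 fold change -0.16, edgeR adjusted p = 8.71e-04, against -0.07 and 0.136 with TMM). The largest were slbo (2.00) and ct (1.94, adjusted p = 4.72e-12), both transcription factors of follicle cells. slbo was near the floor in mod07570/+ ovaries, at 0.725 to 1.77 cpm, so its call is not read as a result. The 2 that fell were chif (-0.29, adjusted p = 3.74e-11), which is needed for amplification of the chorion genes, and usp (-0.16, adjusted p = 2.99e-05), the partner of the ecdysone receptor. Neither of these 2 calls held with unique counts. Of the 16, tj, slbo and mirr are also among the follicle cell markers. The members exceeded every regulator of the list in log2 fold change.

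**Figure D3:**
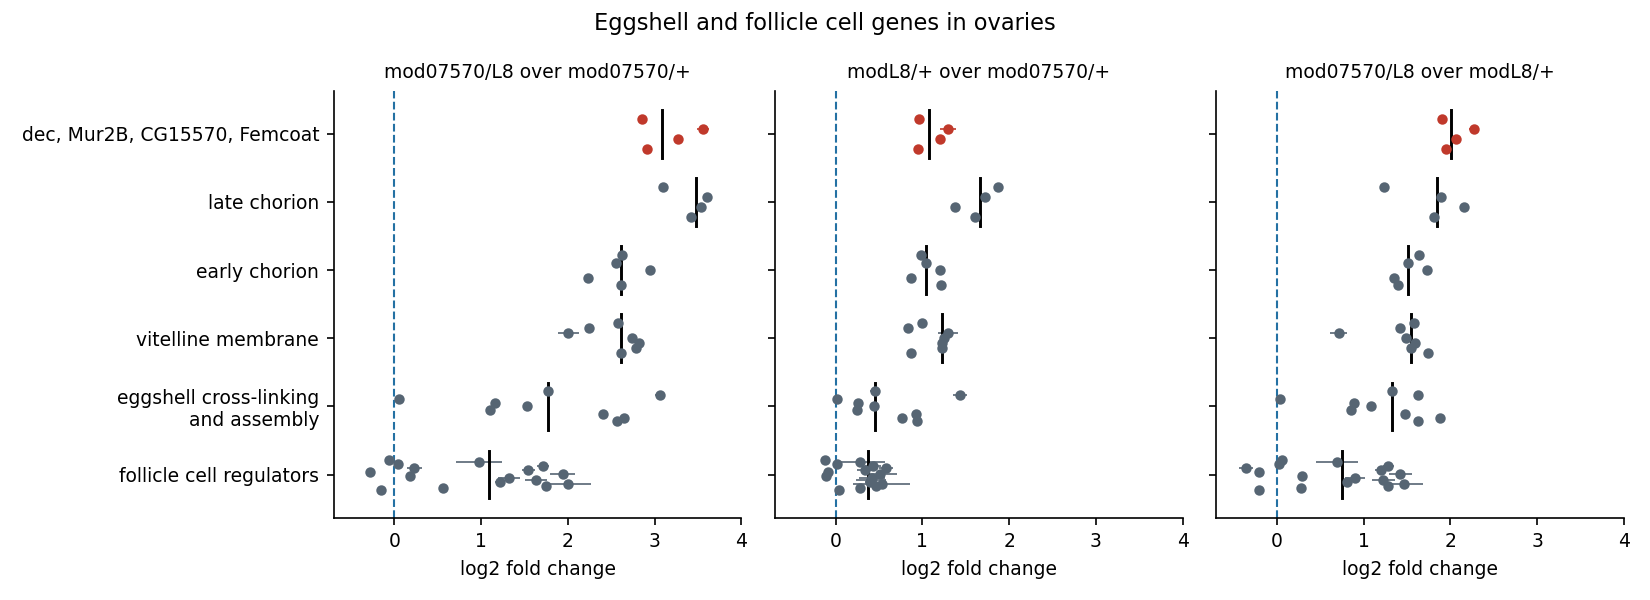
Log2 fold changes of the 4 members (red) and of the genes of 5 lists (grey) in the 3 ovary comparisons, with standard errors from the edgeR fit. The black line in each row is the median of the row, and the dashed line is the median of all features tested. In mod07570/L8 over mod07570/+ the median of the members is 3.09, between the medians of late chorion (3.48) and early chorion (2.61).

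The transcripts that carried the counts were examined for the 2 members with several annotated transcripts. CG15570 and Femcoat have 1 transcript each, of 4278 and 833 bases, and all of their fragments in ovaries were unique. dec has 6 transcripts of 3612 to 5696 bases that share most of their sequence, and 5.54% to 6.24% of its ovary counts were unique to 1 transcript. The rest were divided by eXpress, so the shares below depend on its model.

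In ovaries the dec transcript of 3751 bases held most of the counts of the gene. Its share was 77.2% ± 0.76 (SD, n = 3) in mod07570/L8, 80.7% ± 0.77 in modL8/+ and 78.9% ± 1.7 in mod07570/+, and it had 3123 to 3300, 745 to 928 and 355 to 449 unique fragments per library in these genotypes. The 2 transcripts over 5 kb, of 5683 and 5696 bases, together held 15.6% ± 0.28 in mod07570/L8, 13.3% ± 0.24 in modL8/+ and 14.2% ± 1.4 in mod07570/+, so that the lowest mod07570/L8 library (15.3%) lay just above the highest mod07570/+ library (15.2%), and modL8/+ lay within the range of mod07570/+. The transcripts of 3612 and 3686 bases held at most 0.427% and 0.179% in any ovary library. The tables do not name the protein made from each transcript.

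Mur2B has 3 transcripts, of 5100, 6411 and 6772 bases, and 4.26% to 6.64% of its ovary counts were unique. The transcript of 5100 bases held 42.4% ± 1.1 (SD, n = 3) of the gene in mod07570/L8, 40.4% ± 2.7 in modL8/+ and 33.7% ± 6.2 in mod07570/+ ovaries. The lowest mod07570/L8 library (41.2%) lay above the highest mod07570/+ library (40.8%) by less than the spread of mod07570/+. In heads this transcript held more of the gene, 52.4% ± 2.5 in mod07570/L8, 51.7% ± 2.1 in mod07570/+, 57.2% ± 3.8 with EEO and 59.9% ± 2.3 without EEO, and no head library (49.7% or more) overlapped an ovary library. The transcript of 6411 bases had no unique fragment in any library and that of 6772 bases had at most 8, so the division between these 2 rests on the model alone.

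**Figure D4:**
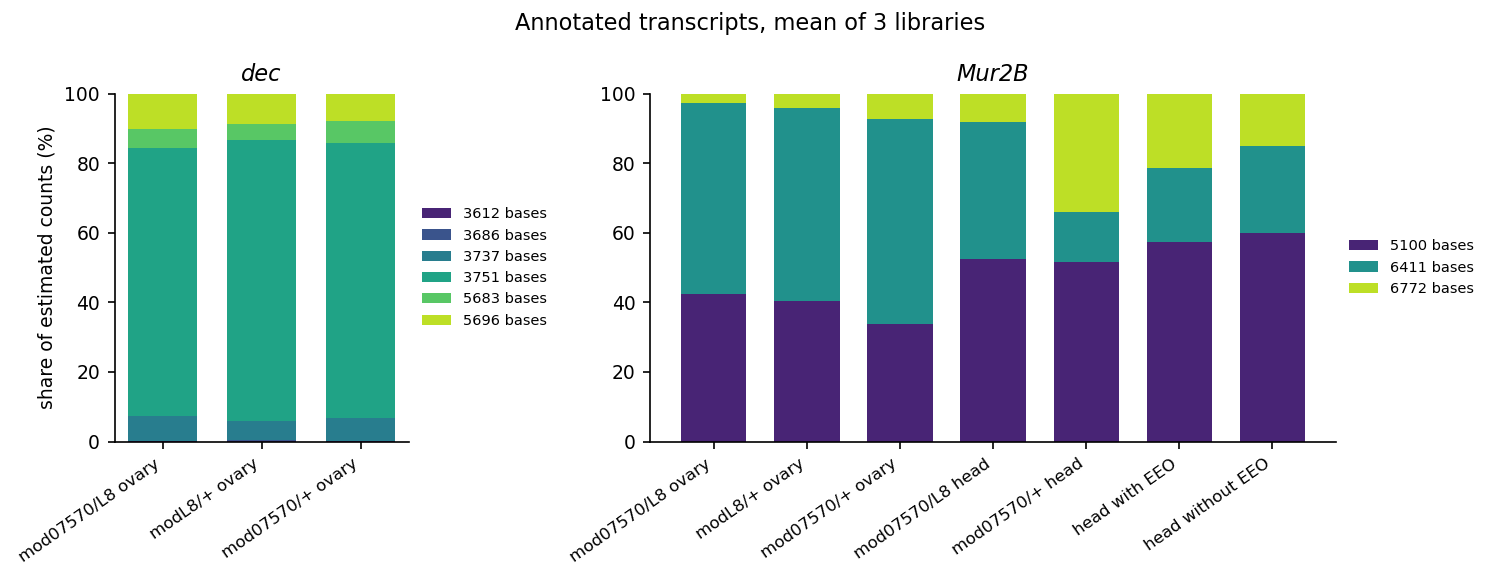
Share of the estimated counts of dec (left, ovaries) and Mur2B (right, ovaries and heads) that eXpress gave to each annotated transcript, as the mean of 3 libraries, with transcripts named by their length. The 3751-base transcript holds most of dec in each ovary genotype, and the 5100-base transcript of Mur2B holds 33.7% to 42.4% in ovaries and 51.7% to 59.9% in heads.

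In heads the members parted ways. dec, CG15570 and Femcoat were at or near 0 and Mur2B was not. Femcoat had 0 counts in 10 of the 12 head libraries and 1 count in the other 2. CG15570 had 0 to 4 counts and dec 0 to 16 counts per head library. The library with 16 dec counts was replicate 2 of the heads without EEO (0.919 cpm), and the other 2 libraries of that group had 4 and 2 counts. A count of 0 allows up to 3 counts, which is 0.132 to 0.234 cpm at the depth of these libraries and covers counting error only. These 3 genes did not pass the filter on low counts in heads and were not fitted, so 1 of the 4 members, Mur2B, was fitted there.

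Mur2B was at 62.2, 53.6 and 56.6 cpm in mod07570/L8 heads against 58.9, 67.0 and 59.2 cpm in mod07570/+ heads. The groups overlapped, with a fitted log2 fold change of -0.05 (SE 0.097). In heads with EEO Mur2B was at 24.4, 43.8 and 45.1 cpm, against 42.8, 41.8 and 42.7 cpm in heads without EEO. These groups overlapped too, with a fitted log2 fold change of -0.15 (SE 0.21). Replicate 1 of the heads with EEO was the low one, and without it the log2 fold change was 0.07. Mur2B was called in neither comparison, where 3.53% and 0.523% of all features were called in either direction (353 and 53 features). With 1 library left out, these counts lay between 66 and 464 and between 20 and 234.

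By estimated counts, over the 7 groups Mur2B was highest in mod07570/L8 ovaries (558 ± 12.0 cpm, SD, n = 3) and next in modL8/+ ovaries (140 ± 6.0). Both stood apart from all other groups. It then formed a middle set of mod07570/L8 heads (57.5 ± 4.4), mod07570/+ heads (61.7 ± 4.6) and mod07570/+ ovaries (61.7 ± 3.1), which overlapped. The lowest set was the heads with EEO (37.7 ± 11.6) and without EEO (42.4 ± 0.55), which overlapped each other, and their highest library (45.1 cpm) was under the lowest of the middle set (53.6 cpm). Sex-linked markers split the head groups in the same way as the estimated counts of Mur2B. The male-specific RNA roX1 was at 666 to 1152 cpm in heads with EEO and 1059 to 1081 cpm without EEO, against 3.13 to 4.55 cpm in mod07570/L8 and 2.98 to 3.51 cpm in mod07570/+ heads, and the female yolk protein gene Yp1 at 1.59 to 6.10 and 0.969 to 4.19 cpm, against 44105 to 47286 and 27338 to 57495 cpm in the same order. The lower set of Mur2B by estimated counts and these markers cannot be told apart in this design. The levels of the 2 tissues were not tested against each other.

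**Figure D5:**
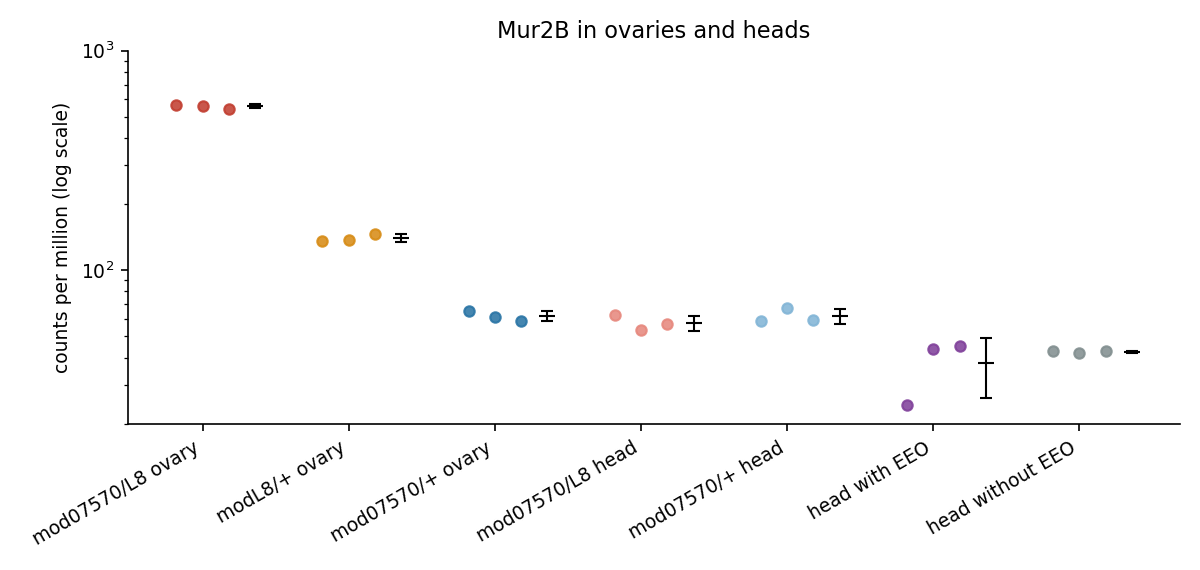
Mur2B in each of the 21 libraries, in cpm on a log axis, with ovary groups to the left of head groups. Points are libraries, and the dash is the mean with its SD (n = 3). By estimated counts, head libraries lie between 24.4 and 67.0 cpm, near the mod07570/+ ovaries and under the other ovary groups.

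Replicate 2 of the mod07570/+ heads held germline RNA. osk, which encodes a determinant of the germ plasm, was at 216 cpm in it, 12.1% of the mean of mod07570/+ ovaries, against 0.213 and 3.35 cpm in the other replicates. In the same library dec was at 0.016% and CG15570 at 0.062% of their means in mod07570/+ ovaries, and Femcoat, Cp36 and Vm26Aa had no counts. Mur2B was at 67.0 cpm in it and at 58.9 and 59.2 cpm in the other mod07570/+ heads, and without this library the log2 fold change of Mur2B in mod07570/L8 over mod07570/+ heads was -0.07.

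The genes whose pattern over the 9 ovary libraries was most like that of each member were found by Pearson's r of log2(cpm + 1) among 6618 genes with a mean of at least 10 cpm. The 9 libraries fall into 3 genotypes at separate levels, so r rests on 3 levels and is given as a measure of likeness alone. dec and CG15570 were each other's nearest gene (r = 0.9997). After CG15570, dec was followed by lncRNA:CR42862 (0.9994), CG11381 (0.9993), CG13083 (0.9990) and yellow-g2 (0.9988). CG15570 was followed, after dec, by CG4009 (0.9993), CG11381 (0.9993), yellow-g2 (0.9993) and psd (0.9991), the last a vitelline membrane gene.

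Mur2B had CG13114 (r = 0.9995), CG9747 (0.9994), yellow-g2 (0.9992), Cp36 (0.9990) and dec (0.9988) nearest to it. None of the other members was among the 5 genes nearest to Femcoat. These were CG13084 (0.9993), Obp19c (0.9989), sona (0.9982), CG13083 (0.9982) and Ir7c (0.9979). Among all genes CG15570 was 10th in likeness to Femcoat (r = 0.9973), Mur2B 19th (0.9966) and dec 22nd (0.9965). Femcoat had the fewest counts of the members, and how far this lowered its r was not tested. No separate pattern is read from these ranks. CG13084 was at 244 cpm in mod07570/L8, 58.6 cpm in modL8/+ and 25.0 cpm in mod07570/+ ovaries. With FPKM in place of cpm, 4 of the 5 nearest genes were the same for dec, Mur2B and CG15570, and 3 of 5 for Femcoat.

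All 4 members lie on the X chromosome. In the Release 6 annotation CG15570 and Femcoat are adjacent protein-coding genes, between CG15571 and Muc4B, while dec and Mur2B lie elsewhere on X. These neighbours, named after their values were seen, ran in the same order of genotypes at lower levels than CG15570. Muc4B, a mucin gene, averaged 116 ± 4.7 cpm in mod07570/L8, 43.7 ± 3.4 cpm in modL8/+ and 20.1 ± 1.1 cpm in mod07570/+ ovaries (SD, n = 3 each), and mod07570/L8 exceeded mod07570/+ by 2.62 on the log2 scale (SE 0.052, edgeR adjusted p = 1.26e-24). CG15571 was at 16.0 ± 1.4 cpm, 7.23 ± 0.86 cpm and 2.49 ± 0.43 cpm in the same genotypes, a log2 difference of 2.76 (SE 0.14, edgeR adjusted p = 2.53e-15).

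The gene next to dec on one side, Ir7c of the ionotropic receptor family, averaged 71.8 ± 1.3 cpm in mod07570/L8, 16.5 ± 0.53 cpm in modL8/+ and 7.66 ± 0.91 cpm in mod07570/+ ovaries (SD, n = 3 each), with mod07570/L8 above mod07570/+ by 3.31 on the log2 scale (edgeR adjusted p = 6.91e-24). Ir7b on the other side was at no more than 0.51 cpm on average in any ovary genotype. An antisense gene, asRNA:CR43615, overlaps the end of dec and was at 18.3 ± 4.4 cpm in mod07570/L8, 4.78 ± 1.0 cpm in modL8/+ and 1.84 ± 0.72 cpm in mod07570/+. The library kit (NEBNext Ultra RNA) does not mark strand, so reads in the overlap cannot be told apart. The antisense level was 0.557% of that of dec in mod07570/L8, 0.538% in modL8/+ and 0.395% in mod07570/+ ovaries.

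br and dor are the next 2 protein-coding genes after Mur2B in the order of annotated starts. Before Mur2B lie Nmdar2 and CG14795, which averaged no more than 0.133 and 0.150 cpm in any ovary genotype. dor averaged 40.1 ± 4.4 cpm in mod07570/L8, 41.5 ± 1.0 cpm in modL8/+ and 44.3 ± 2.6 cpm in mod07570/+ ovaries (SD, n = 3 each), with a log2 fold change of mod07570/L8 over mod07570/+ of -0.05 (SE 0.067, edgeR adjusted p = 0.49). br, a transcription factor that patterns the eggshell appendages, was at 35.3 ± 0.58 cpm, 16.2 ± 0.41 cpm and 13.0 ± 0.83 cpm in these genotypes (log2 fold change 1.54, SE 0.075, edgeR adjusted p = 5.06e-16). The log2 fold change of Mur2B, 3.27, was larger than those of br and dor.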

How the data were processed

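Poly(A) RNA was sequenced by the authors as paired-end reads from a kit that does not mark strand, with 3 biological replicates per group. The authors mapped reads with Bowtie 2 to 34437 RefSeq transcripts and 126 transposon consensus sequences and quantified them with eXpress (versions not given in the sources used here). The deposited estimated counts are eXpress estimates that divide ambiguous fragments among sequences, and near-identical transcripts can exchange reads. The deposited unique counts are fragments that map to 1 sequence alone, and the deposited FPKM were computed by the authors with eXpress. H3K9me3 peak lists (dm3) and the small RNA samples were not used here, since no dm3 annotation was at hand to place the members.

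A table of RefSeq accessions matched 34035 transcripts to gene symbols, and the estimated counts of a gene were summed, rounded and tested with edgeR 4.0.16 in R 4.3.3 (quasi-likelihood F test, TMM, Benjamini-Hochberg adjustment, threshold 0.05) after features that reached 1 cpm in fewer than 3 of the 6 libraries compared had been dropped. Tables were handled with Python 3.11.15, numpy 2.4.6 and pandas 2.3.3, and plots drawn with matplotlib 3.10.9. The fits were tested on simulated data. Alternatives were unique counts, total-count scaling, DESeq2 1.42.0, no filter, a replicate block, 1 joint fit of the groups of a tissue, FPKM, each library left out, and, added later, levels per follicle cell marker.

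The members and gene lists were chosen with earlier results of these data known. The text names the 4 members, each gene of a list of up to 10 genes, otherwise the 2 highest and 2 lowest log2 fold changes among the genes called in mod07570/L8 against mod07570/+ ovaries, and the 5 genes most like each member. The other marker lists used were germline (vas, nos, osk, bam, grk, otu), of which 5 of 6 were matched by symbol, muscle (Mhc, Mlc1, Mlc2, up, Act57B, Tm2), fat body (Lsp2, Fbp1, apolpp, Obp99b), photoreceptor (ninaE, trp, ninaC, inaD), yolk protein genes (Yp1, Yp2, Yp3) and male X (roX1, roX2). Lists for neurons (elav, nSyb, Syt1) and hemocytes (Hml, NimC1) were also measured, and their levels are not given here. Gene order was taken from the Release 6 annotation, whose build differs from dm3, so no coordinates are given.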

Additional observations from a re-analysis of the deposited data

How the results depend on the processing

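In the 3 ovary comparisons no alternative changed the direction of any member. For mod07570/L8 over mod07570/+ ovaries, unique counts gave log2 fold changes of 2.80 (dec), 2.97 (Mur2B) and 2.83 (CG15570), total-count scaling 2.82, 3.18 and 2.77 for the same genes, and no filter on low counts 2.83 for CG15570. For modL8/+ over mod07570/+, unique counts gave 1.36 for Mur2B and total-count scaling 0.94 for CG15570. For mod07570/L8 over modL8/+, unique counts gave 1.84 (dec), 1.60 (Mur2B) and 1.87 (CG15570), total-count scaling 1.88, 1.99 and 1.83, and no filter 1.87 for CG15570. Relative to the follicle cell markers, the log2 ratios of mod07570/L8 to mod07570/+ were 1.49 (dec), 1.85 (Mur2B), 1.44 (CG15570) and 2.15 (Femcoat), those of modL8/+ to mod07570/+ 0.69, 0.93, 0.69 and 1.02, and those of mod07570/L8 to modL8/+ 0.81, 0.92, 0.75 and 1.12. The cause of these shifts was not tested, and many are small beside the fold and exceed only a very narrow replicate spread. Leaving out 1 library gave 2.85 to 2.88 for CG15570 in mod07570/L8 over mod07570/+.

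The counts of features called with unique counts were 4048, 1396 and 3549 in the 3 ovary comparisons in the order above, and 33 for heads with EEO against heads without EEO (53 with estimated counts). DESeq2 called 648 features for mod07570/L8 against mod07570/+ heads and 254 for heads with EEO against heads without EEO. With 1 library left out, the counts called by edgeR in the same head comparisons ran from 66 to 464 and from 20 to 234. Of the first, those without mod07570/L8 replicates 1, 2 and 3 were 66, 82 and 144 and that without mod07570/+ replicate 3 was 159. Of the second, those without replicates 1, 2 and 3 were 234, 32 and 30 for heads with EEO and 24, 23 and 20 for heads without EEO. Libraries were fitted as unpaired, and whether replicate numbers pair them was not settled in heads. Deviations of same-numbered libraries correlated at -0.131 to 0.0663 in the ovary comparisons. In mod07570/L8 against mod07570/+ heads the same-numbered values were 0.177, 0.0516 and 0.203, and the others -0.291 to 0.0444. In heads with EEO against heads without EEO they were 0.171, -0.00778 and 0.204, and the others -0.194 to 0.0429. With the replicate block the features called numbered 6316, 3192 and 5912 in the ovary comparisons, 294 in mod07570/L8 against mod07570/+ heads and 43 in heads with EEO against heads without EEO, and the members' log2 fold changes kept their values within the replicate spread. For Mur2B in heads, the log2 fold change lay between -0.11 and 0.01 for mod07570/L8 over mod07570/+ and between -0.28 and 0.07 for heads with EEO over heads without EEO when 1 library was left out. In heads, depth limits what can be said of dec, CG15570 and Femcoat to the bounds given.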
